A study of Rattus norvegicus with 4 samples.

Results

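The genes described here encode the calcium release unit and calcium store of the sarcoplasmic reticulum, the internal calcium compartment of muscle cells. The 10 genes are Ryr2, Ryr3, Trdn, Casq2, Asph, Hrc, Jph2, Atp2a2, Pln and Camk2d, chosen by symbol from the 32623 genes of the deposited table, and all 10 were found and passed the filter on low counts. The data are single-nucleus RNA sequencing counts from 4 heart samples of Sprague Dawley rats, all labelled infarct zone and each sequenced as 1 library: MI_1H, MI_6H and MI_24H, from hearts with myocardial infarction, and Sham. The names of the infarct samples carry 1, 6 and 24 h, which their treatment labels call reperfusion while the series text also speaks of ligation for those times, so the meaning of the hours is uncertain. The sources used here do not state age, sex or the number of animals behind a sample.

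The nuclei of the 4 samples lie in 1 table in which barcode suffixes 1 to 4 separate the libraries. No source used here ties a suffix to a sample, so the libraries are called 1 to 4, none is called infarct or sham, and differences between them are given as values. With 1 library per sample there is no replicate and no test, and the intervals given are 95% intervals that cover counting error only. The libraries held 8363, 12897, 14287 and 6181 nuclei after filtering, and their median nucleus had 1298, 603, 1883 and 2213 unique molecular identifiers (UMIs, counts of distinct RNA molecules). Library 2 stood apart, since 73.4% of its nuclei lay in unnamed clusters while the figures for libraries 1, 3 and 4 were 2.93, 21.7 and 16.8%, and 264 barcode sequences occurred in more than 1 library. Cardiomyocyte-like nuclei were found by clustering without the 10 genes and by markers such as Rbm20, Mlip and Fhod3, and numbered 2528, 394, 1122 and 737, with median depths of 2583, 1989, 4349 and 5042 UMIs. Rbm20, a splicing regulator of heart muscle, was 11.1, 11.1, 50.5 and 51.0 times as abundant in these nuclei as in the other named nuclei of the same library.

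In a heart muscle cell, calcium entering through the L-type channel opens ryanodine receptors, and calcium then leaves the sarcoplasmic reticulum and starts contraction. Ryr2 encodes the main release channel of the heart and Ryr3 a related channel better known from brain and some smooth and skeletal muscle. The pump encoded by Atp2a2 (SERCA2) returns calcium to the store, phospholamban (Pln) restrains that pump, and the kinase encoded by Camk2d acts on both the channel and phospholamban.

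The start regions of 5 of the genes are shown because the genes parted among cardiomyocyte-like clusters, with Ryr3 on one side and Trdn, Atp2a2 and Pln on the other, and Ryr2 as the main channel. Hrc lay on the side of Trdn, Atp2a2 and Pln as well, and its start region is not printed. The 250 bases before each annotated start are printed from RefSeq on the build GRCr8, on the strand of the gene, with CG pairs in capitals. The Ryr2 stretch is chr17:63081277-63081526 on the plus strand, Atp2a2 chr12:39733269-39733518 plus, Ryr3 chr3:120433466-120433715 minus (the first of 2 annotated starts), Pln chr20:33172244-33172493 plus and Trdn chr1:26229600-26229849 minus.
Ryr3: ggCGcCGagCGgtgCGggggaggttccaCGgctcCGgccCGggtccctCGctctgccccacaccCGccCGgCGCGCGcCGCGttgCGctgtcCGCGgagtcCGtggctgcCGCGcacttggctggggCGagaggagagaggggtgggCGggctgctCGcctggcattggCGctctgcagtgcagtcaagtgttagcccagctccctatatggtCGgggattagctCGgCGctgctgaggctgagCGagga
Ryr2: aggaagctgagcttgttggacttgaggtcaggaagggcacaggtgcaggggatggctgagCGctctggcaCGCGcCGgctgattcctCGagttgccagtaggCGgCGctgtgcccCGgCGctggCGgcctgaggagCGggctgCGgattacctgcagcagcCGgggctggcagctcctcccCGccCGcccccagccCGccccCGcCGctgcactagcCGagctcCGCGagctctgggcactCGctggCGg
Atp2a2: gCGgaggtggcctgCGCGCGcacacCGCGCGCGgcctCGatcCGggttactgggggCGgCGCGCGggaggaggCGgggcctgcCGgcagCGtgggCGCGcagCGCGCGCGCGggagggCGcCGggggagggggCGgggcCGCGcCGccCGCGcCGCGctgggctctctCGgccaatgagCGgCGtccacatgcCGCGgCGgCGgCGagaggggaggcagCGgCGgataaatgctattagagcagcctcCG
Pln: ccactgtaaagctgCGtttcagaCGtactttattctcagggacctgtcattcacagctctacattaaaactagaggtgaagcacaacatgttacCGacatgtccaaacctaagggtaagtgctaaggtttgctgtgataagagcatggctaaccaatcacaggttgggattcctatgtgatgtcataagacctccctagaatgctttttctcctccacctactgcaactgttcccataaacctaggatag
Trdn: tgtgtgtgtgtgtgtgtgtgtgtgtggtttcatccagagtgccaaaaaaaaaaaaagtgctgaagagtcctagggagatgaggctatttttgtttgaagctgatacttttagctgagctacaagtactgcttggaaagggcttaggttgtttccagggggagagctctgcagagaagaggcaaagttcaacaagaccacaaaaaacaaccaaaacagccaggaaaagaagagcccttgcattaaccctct
The channel and pump genes began in CG-rich sequence, with 29 CG pairs for this Ryr3 start, 23 for Ryr2 and 45 for Atp2a2. Pln held 3 and Trdn 0, against a median of 5 over all 33469 windows. At least as many pairs occurred in 6.04% of windows for this Ryr3 start, 12.3% for Ryr2, 0.415% for Atp2a2 and 71.4% for Pln. The other Ryr3 start held 3 pairs, Casq2 5, Jph2 7, Camk2d 28 and Hrc 0, and Asph is not shown here. Windows of 300 bases, reaching 50 bases past the start, were searched on both strands for the ERR element TNAAGGTCA, the CArG box, the GATA site AGATAA and the TATA letters TATAAA, and none of the 9 genes with a window held any of these. All windows held them in 1.20, 1.64, 11.6 and 14.2% of cases, in that order. The shorter letters AGGTCA, which the ERR element contains, occurred in the Ryr2 window and in 16.2% of all windows, and the E-box letters CAGCTG in the Pln window and in 15.1% of all windows. These matches describe letters in a window and nothing about binding.

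Against all other named nuclei of the same library, 8 of the 10 genes were higher by more than 2-fold in cardiomyocyte-like nuclei in all 4 libraries, and Asph and Camk2d were not. The scale of this count is log2(CPM + 10), where CPM is UMIs of a gene per 1000000 UMIs of the class, and on it 2.53% of the 15800 genes with at least 30 UMIs were higher in all 4 libraries. None of the 10 was lower in all 4, as 0.570% of all genes were. When cardiomyocyte-like nuclei were instead taken as those with a UMI of at least 2 of Rbm20, Mlip and Fhod3, 5 of the 10 were higher. The share of all genes by that rule is not given here. The median of all genes lay 0.14 to 0.29 log2 below zero in this contrast. These are textbook heart muscle genes, chosen with the contrast known for several of them, so the count is a description.

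**Figure D1:**
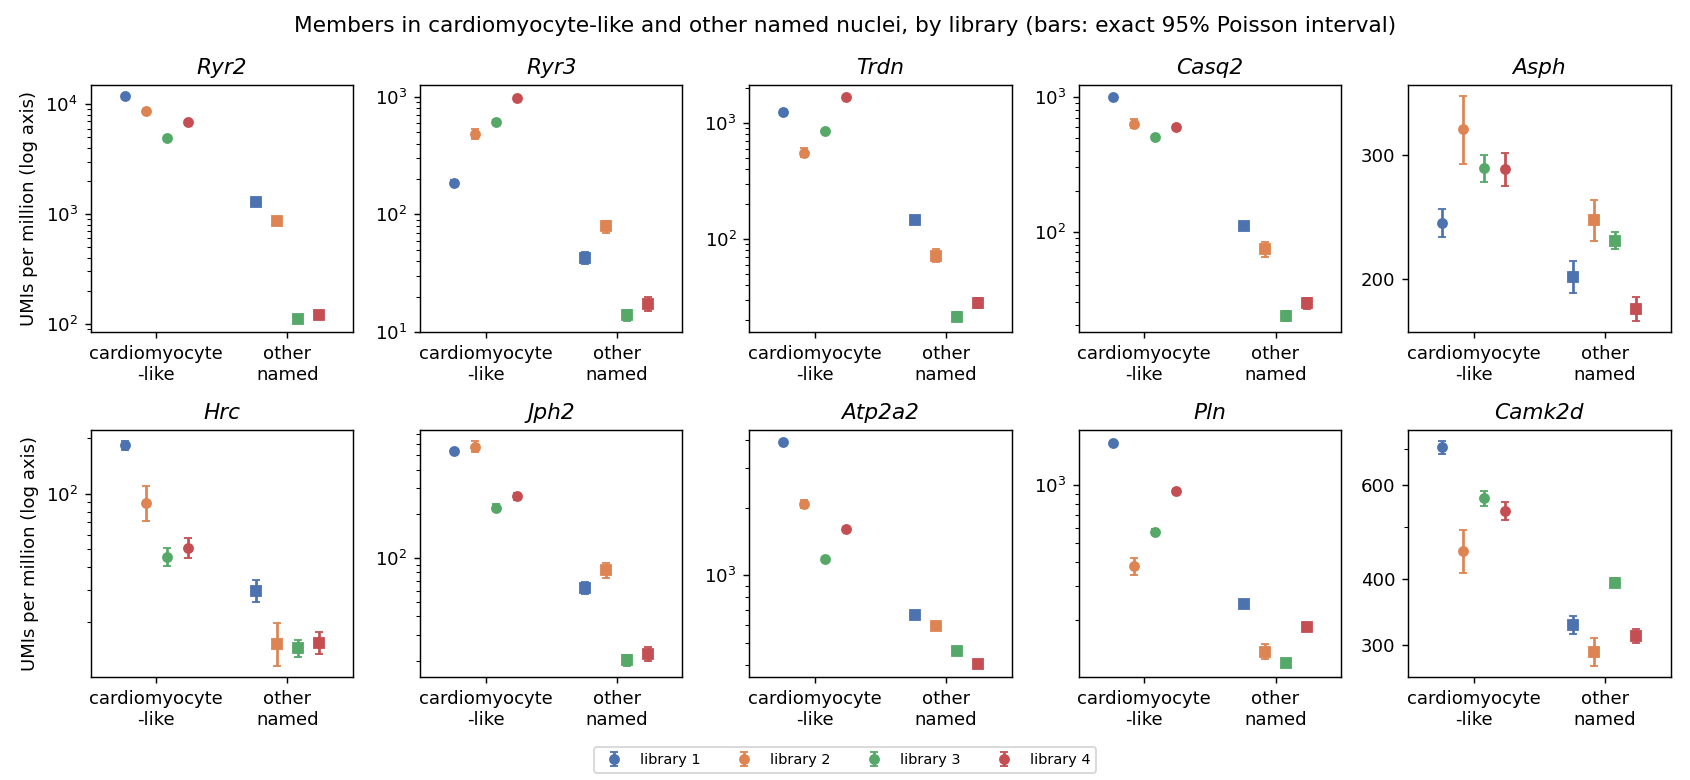
UMIs per 1000000 UMIs of the class (CPM, log axis) for each of the 10 genes in cardiomyocyte-like nuclei (circles, left) and all other named nuclei (squares, right), coloured by library, with exact 95% Poisson intervals. Circles and squares stand well apart for Ryr2, where the circles lie between 4872 and 11754 and the squares between 110 and 1280, and they lie close together for Asph and Camk2d.

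Of the release channels, Ryr2 stood at 11754, 8714, 4872 and 6937 CPM in cardiomyocyte-like nuclei of libraries 1 to 4, against 1280, 869, 110 and 120 CPM in the other named nuclei. The ratios were 9.18 (8.99 to 9.38), 10.03 (9.63 to 10.5), 44.3 (42.6 to 46.1) and 57.7 (54.9 to 60.7). The cardiomyocyte-like values of every library lay above the other values of every library. Ryr3 stood at 186, 483, 610 and 981 CPM in cardiomyocyte-like nuclei, against 42.7, 79.0, 13.9 and 17.4 CPM in the other named nuclei. Its ratios were 4.34 (3.84 to 4.92), 6.11 (5.27 to 7.11), 43.9 (39.3 to 49.2) and 56.3 (49.3 to 64.5). Both channels had wider gaps in libraries 3 and 4 than in libraries 1 and 2. So did 6 of the 9 markers used to name the class, Rbm20 among them, and Myh6, Tnnt2 and Tnni3 did not, with Myh6 ratios of 6.89, 8.78, 4.61 and 4.38.

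Of the proteins that hold calcium at the release site, triadin (Trdn), which links calsequestrin to the channel, stood at 1250, 557, 850 and 1670 CPM in cardiomyocyte-like nuclei, against 146, 72.1, 21.4 and 28.3 CPM in other named nuclei. Calsequestrin (Casq2), the main calcium buffer of the cardiac store, stood at 997, 635, 503 and 598 CPM, against 110, 73.7, 23.4 and 29.1 CPM. The lowest cardiomyocyte-like value of each gene lay above its highest value in the other nuclei. Hrc, which encodes a histidine-rich calcium-binding protein of the store, stood at 183, 88.9, 45.5 and 50.9 CPM, against 29.5, 15.3, 14.5 and 15.4 CPM. Asph, whose transcripts encode the junction protein junctin as well as a hydroxylase of the general reticulum, stood at 240, 326, 287 and 287 CPM, against 201, 243, 227 and 182 CPM. The Asph ratios of 1.19, 1.35, 1.27 and 1.58 were above 1 beyond counting error in each library, and the cardiomyocyte-like value of library 1 lay below the other-nuclei value of library 2. Transcripts of one gene are not separated in these counts, so the junctin form has no value of its own.

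Junctophilin 2 (Jph2), which tethers the reticulum to the plasma membrane, stood at 535, 575, 220 and 264 CPM in cardiomyocyte-like nuclei, against 63.0, 82.3, 20.1 and 22.3 CPM in other named nuclei. Atp2a2, the pump gene, had 3907, 2076, 1179 and 1608 CPM, against 664, 597, 459 and 405 CPM. For Pln the values were 1663, 380, 575 and 931 CPM in cardiomyocyte-like nuclei, against 241, 137, 120 and 183 CPM. The groups did not overlap for these 3 genes, and the same held for Ryr2, Ryr3, Trdn, Casq2, Hrc and Camk2d. How many of all genes had groups without overlap is not given here, so this is a description. The ratios of Atp2a2, 5.88, 3.48, 2.57 and 3.97, were narrower than those of Ryr2 in every library. Camk2d stood at 705, 450, 566 and 535 CPM, against 327, 291, 393 and 312 CPM. Its ratios were 2.16, 1.54, 1.44 and 1.71. It passed 2-fold in library 1 alone, at 1.08 log2.

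The share of nuclei with at least 1 UMI shows the same genes nucleus by nucleus. Ryr2 had a UMI in 99.8, 97.0, 99.0 and 97.8% of nuclei of the cardiomyocyte-like class and in 59.3, 62.7, 19.6 and 22.9% of those of the endothelial-like class, which is not known for Ryr2 and had median depths of 974, 911.5, 1908 and 2211 UMIs. With each nucleus thinned to 1000 UMIs, the Ryr2 shares were 99.96, 92.8, 92.0 and 94.9%, against 43.5, 48.5, 10.8 and 9.46%. Nuclei under 1000 UMIs were left out of the thinned shares, 102, 31, 16 and 14 cardiomyocyte-like and 940, 540, 211 and 215 endothelial-like. The Ryr2 UMIs of endothelial-like nuclei are the level against which a share has to be read, and libraries 1 and 2 had more of them. Ryr3 had a UMI in 32.8, 48.7, 71.3 and 80.7% of cardiomyocyte-like nuclei and in 2.08, 8.35, 2.78 and 3.62% of endothelial-like ones. Thinned, its shares were 14.9% (13.5 to 16.4), 29.2% (24.6 to 34.2), 40.1% (37.2 to 43.1) and 48.4% (44.7 to 52.1), against 1.35, 5.07, 1.61 and 1.09%. The intervals of libraries 2 and 3 did not overlap in this draw, but in a second draw of the same nuclei library 2 stood at 33.9% (29.0 to 39.0), which overlaps library 3. Thinned shares of all 10 genes lay above those of endothelial-like nuclei beyond the intervals in each library. Thinning covered these genes only, so no share of all genes stands beside this. Asph lay closest, with thinned shares of 20.5, 24.8, 24.5 and 21.6%, against 14.8, 16.1, 13.9 and 11.7%.

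Between libraries, 5 of the 10 genes differed by more than 2-fold in cardiomyocyte-like nuclei, counting a gene where any library lay beyond 1 log2 of the mean of the other 3, and 20.7% of all 15800 genes did so. In library 1, Pln lay 1.48, Hrc 1.48 and Atp2a2 1.30 log2 above the other libraries, where 1.99% of all genes were above. Ryr3 lay 1.78 log2 below in the same library, where 16.2% of all genes were below. In library 2, Pln lay at -1.32 and Trdn at -1.11 log2, where 1.16% of all genes were below, and in library 4 Ryr3 lay 1.34 above, where 2.99% were above. In libraries 2 and 3 0 of the 10 lay above, as 2.12 and 7.38% of all genes did, and in libraries 3 and 4 0 of the 10 lay below, as 0.835 and 0.0633% did. The median of all genes lay at -0.29, 0.01, 0.13 and 0.10 log2 in libraries 1 to 4. Relative to that median, Ryr3 lay at -1.49 in library 1 and 1.24 in library 4, and Pln at 1.77 in library 1 and -1.33 in library 2. Casq2, Asph, Jph2, Camk2d and Ryr2 stayed within 1 log2 of the other libraries before that median was taken off. Relative to it, 8 of the 10 genes lay beyond 1 log2 in some library, as 17.3% of all genes did, since Ryr2 and Casq2 then lay 1.11 and 1.07 above in library 1 and Jph2 at -1.07 in library 3. The count was 9 with median-of-ratios scaling and 2 among the other 3 libraries when library 1 was left out, so it changed with the scaling and with library 1. The share of all genes in those settings is not given here, so this change is not shown to be particular to the 10 genes.

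Ryr3 was lowest in library 1 and highest in library 4, a 5.29-fold span, and the other 9 genes did not share that order. Ryr3 made up 1.55% (1.48 to 1.64), 5.25% (4.80 to 5.73), 11.1% (10.8 to 11.5) and 12.4% (12.1 to 12.7) of the UMIs of both ryanodine receptor genes together. These shares are not corrected for gene length and serve to compare libraries only. Library 1 was lowest and library 4 highest for Ryr3 under each of the 11 alternatives that kept all 4 libraries. Of these, the pseudocount of 1 and the lack of a count filter could not change that order. Pln made up 29.9, 15.5, 32.8 and 36.7% of the UMIs of Pln and Atp2a2 together, with library 2 lowest. Library 2 had the fewest cardiomyocyte-like nuclei, 394, and the fewest UMIs behind the Pln value, 376.

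Markers of other cell types also differed between libraries within cardiomyocyte-like nuclei, and not in 1 direction. Fibroblast markers summed to 137, 1190, 4140 and 1918 CPM in cardiomyocyte-like nuclei, none of them at 0 in any library, and macrophage markers to 17.1, 162, 699 and 294 CPM. Endothelial markers summed to 130, 636, 706 and 1390 CPM. Pericyte markers were highest in library 1, at 1020, 928, 600 and 616 CPM, and lymphatic endothelial markers lay at 164, 176, 255 and 197 CPM. These sums do not separate RNA of other cells from transcripts of the cardiomyocyte-like nuclei themselves, and that was not tested. The share of UMIs estimated to come from other cells or free RNA was 27.9, 47.4, 65.0 and 56.6%. It was set where markers of other classes reach 0, so it counts all of their UMIs as coming from elsewhere. By the same rule it ran from 16.4% in lymphatic endothelial-like nuclei of library 1 to 88.2% in pericyte-like nuclei of library 2. Values after subtraction are therefore a description. With the share of cardiomyocyte-like nuclei subtracted, 3 genes stayed beyond 2-fold, Ryr3, Trdn and Pln. The Ryr2 values then came to 13425, 14256, 11866 and 13299 CPM, so library 3 no longer stood far below library 1. Ryr3 then stood at 208, 757, 1486 and 1879 CPM, and Pln at 1887, 511, 1238 and 1617 CPM. Hrc lay 0.96 and Atp2a2 0.75 log2 above the other libraries in library 1 after the subtraction.

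The cardiomyocyte-like nuclei fell into 8 clusters, numbered within their library: 110 and 112 in library 1, 218 in library 2, 314 and 318 in library 3, and 407, 416 and 419 in library 4. The values of the genes in them are a description, since the clusters come from the same nuclei. In library 3, cluster 314 (681 nuclei, median 5491 UMIs) held less Ryr2, at 3669 against 8089 CPM in cluster 318 (441 nuclei, median 3542 UMIs). It also held less Trdn, at 555 against 1638 CPM, less Hrc, at 26.0 against 97.9 CPM, less Atp2a2, at 845 against 2075 CPM, and less Pln, at 343 against 1195 CPM. Ryr3 ran the other way, at 686 against 407 CPM. Past 2-fold, these were 0 of the 10 genes above and 5 below (Ryr2, Trdn, Hrc, Atp2a2 and Pln), where 3.12% of 11653 genes were above and 2.62% below.

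In library 4, cluster 419 (176 nuclei, median 4097 UMIs) had the highest Ryr3 value of the 8 clusters, 2338 CPM, against 571 CPM in cluster 407 and 932 CPM in cluster 416. Its ratio to the rest of the cardiomyocyte-like nuclei of library 4 was 3.37 (3.18 to 3.57). In the same nuclei Pln stood at 279, against 794 and 1600 CPM in clusters 407 and 416. Trdn stood at 562, against 1312 and 3050 CPM. Atp2a2 stood at 600, against 1385 and 2662 CPM, and Hrc at 20.4, against 45.5 and 80.4 CPM. Ryr3 was the gene past 2-fold above, where 1.60% of 10843 genes were above, and Trdn, Hrc, Atp2a2 and Pln the genes past 2-fold below, where 6.20% were below. Cluster 416 held 4 of the 10 above (Ryr2, Trdn, Atp2a2 and Pln), where 2.06% of all genes were above, and 0 below, where 7.20% were below. Cluster 407 held 0 of the 10 above, where 6.82% were above, and Ryr3 and Jph2 below, at -1.35 and -1.01 log2, where 0.452% were below. Jph2 stood at 403 CPM in cluster 419, against 178 and 345 CPM in clusters 407 and 416, and was not past 2-fold in cluster 419. Thinned to 1000 UMIs, 76.3% (69.2 to 82.5) of the nuclei of cluster 419 had a Ryr3 UMI, against 34.4% (28.8 to 40.4) in cluster 407 and 44.1% (38.2 to 50.1) in cluster 416, and 22.5% (16.4 to 29.5) had a Pln UMI, against 58.2% (52.1 to 64.2) and 81.9% (76.8 to 86.2). Ryr3 made up 30.3% of the UMIs of both receptors in cluster 419, against 10.1 and 7.52% in clusters 407 and 416, and 15.7% in cluster 314 against 4.79% in cluster 318.

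**Figure D2:**
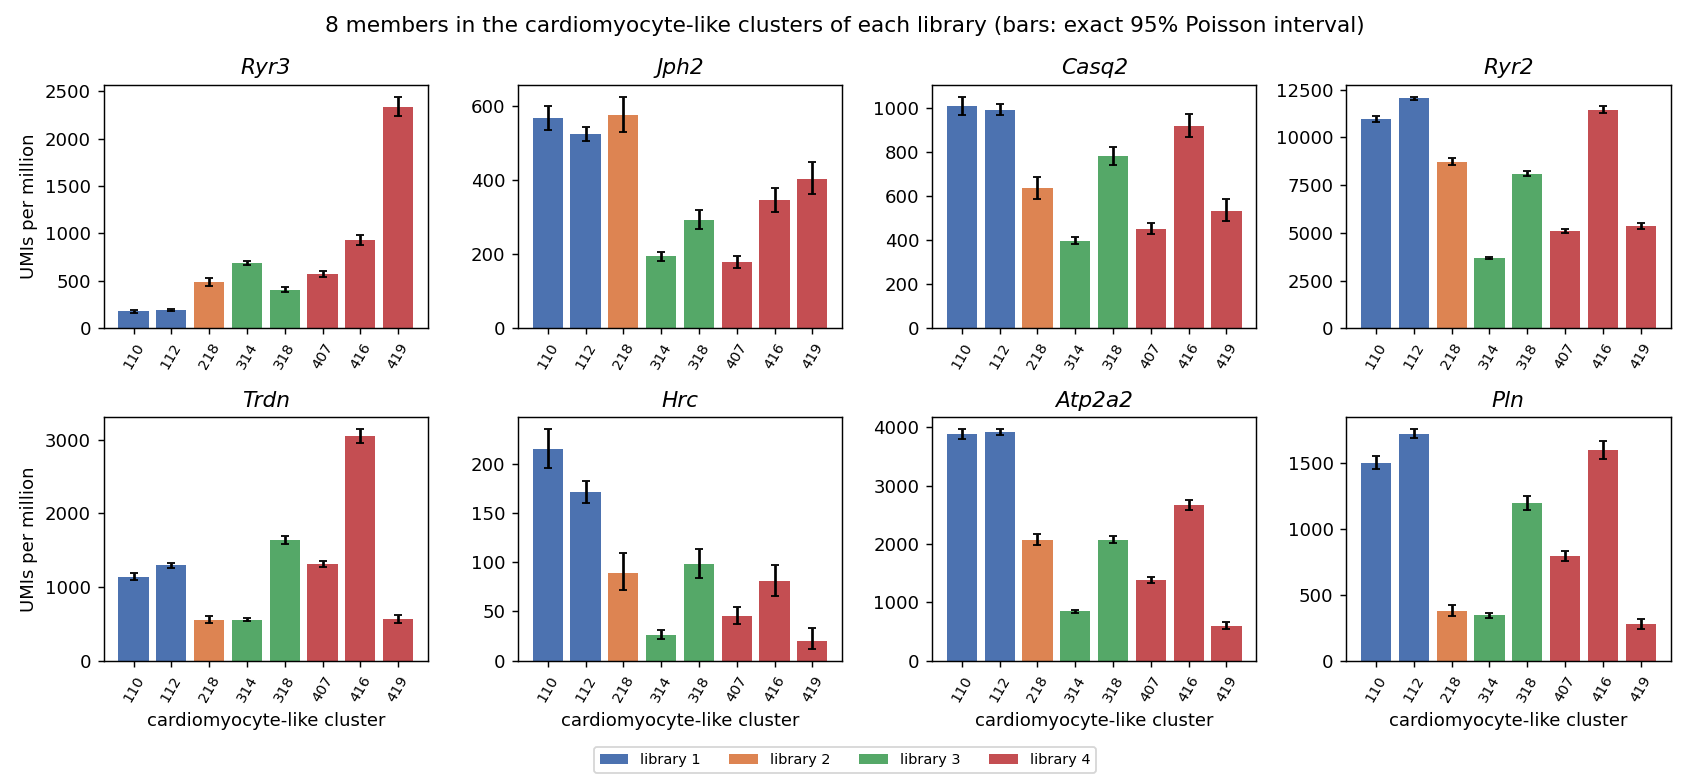
CPM of 8 of the genes in the 8 cardiomyocyte-like clusters, coloured by library, with exact 95% Poisson intervals as bars. Ryr3 is highest in cluster 419, at 2338, where Trdn, Hrc, Atp2a2 and Pln are at or near their lowest.

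Clusters 314 and 419 shared high values of Xirp2, which encodes an actin-binding protein of the intercalated disc, at 3297 and 15622 CPM, against 936 CPM in cluster 318 and 2297 and 1803 CPM in clusters 407 and 416. Among their 10 genes highest by fold over the other nuclei of the library were Ryr3, Xirp2, Alpk2 and Phf24. Markers of other classes summed to 8599 CPM in cluster 314 against 5518 CPM in cluster 318, and to 3406 CPM in cluster 419 against 7711 and 3893 CPM in clusters 407 and 416. The part of that RNA in the differences between clusters was not tested. The markers that name the class were also weaker in clusters 314 and 419. In cluster 419, 5 of the 9 were past 2-fold over the other nuclei of the library, with a mean of 0.92 log2, against 9 in clusters 407 and 416, with means of 1.72 and 3.04. In cluster 314, 7 of the 9 were past 2-fold, with a mean of 1.84, against 9 in cluster 318, with a mean of 3.46. Fhod3 stood at 499 CPM in cluster 419, against 1303 and 2871 CPM in clusters 407 and 416. In library 1 the clusters were alike, with Ryr3 at 178 and 188 CPM, Pln at 1502 and 1723 CPM and Atp2a2 at 3888 and 3913 CPM in clusters 110 and 112. There 0 of the 10 genes passed 2-fold in either direction, where 0.128% of 9357 genes were above and 0.0107% below in cluster 110, and 0.0107% above and 0.128% below in cluster 112.

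Across the 12 classes with at least 50 nuclei in a library, 7 of the 10 genes were highest in cardiomyocyte-like nuclei in every library, and the exceptions were Ryr3, Asph and Camk2d. No share of all genes stands beside this count, so it is a description. Outside them, levels have to be read against cardiomyocyte RNA that reaches other nuclei, which was gauged by 9 cardiomyocyte markers, each as a percentage of its own cardiomyocyte-like level in the library. Over the 29 sums of another class in a library, Ryr2 and Casq2 exceeded every marker in 0, Trdn in 1, Ryr3 in 2, Jph2 in 4, Pln in 5, Atp2a2 in 15, Hrc in 17, Asph in 27 and Camk2d in 28. These counts compare point values and leave out counting error, so a narrow excess may lie within it. Ryr2 ranged over 1.24 to 29.6% of its cardiomyocyte-like level in those sums, Casq2 over 2.44 to 32.3%, Asph over 38.3 to 132% and Camk2d over 33.0 to 108%.

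**Figure D3:**
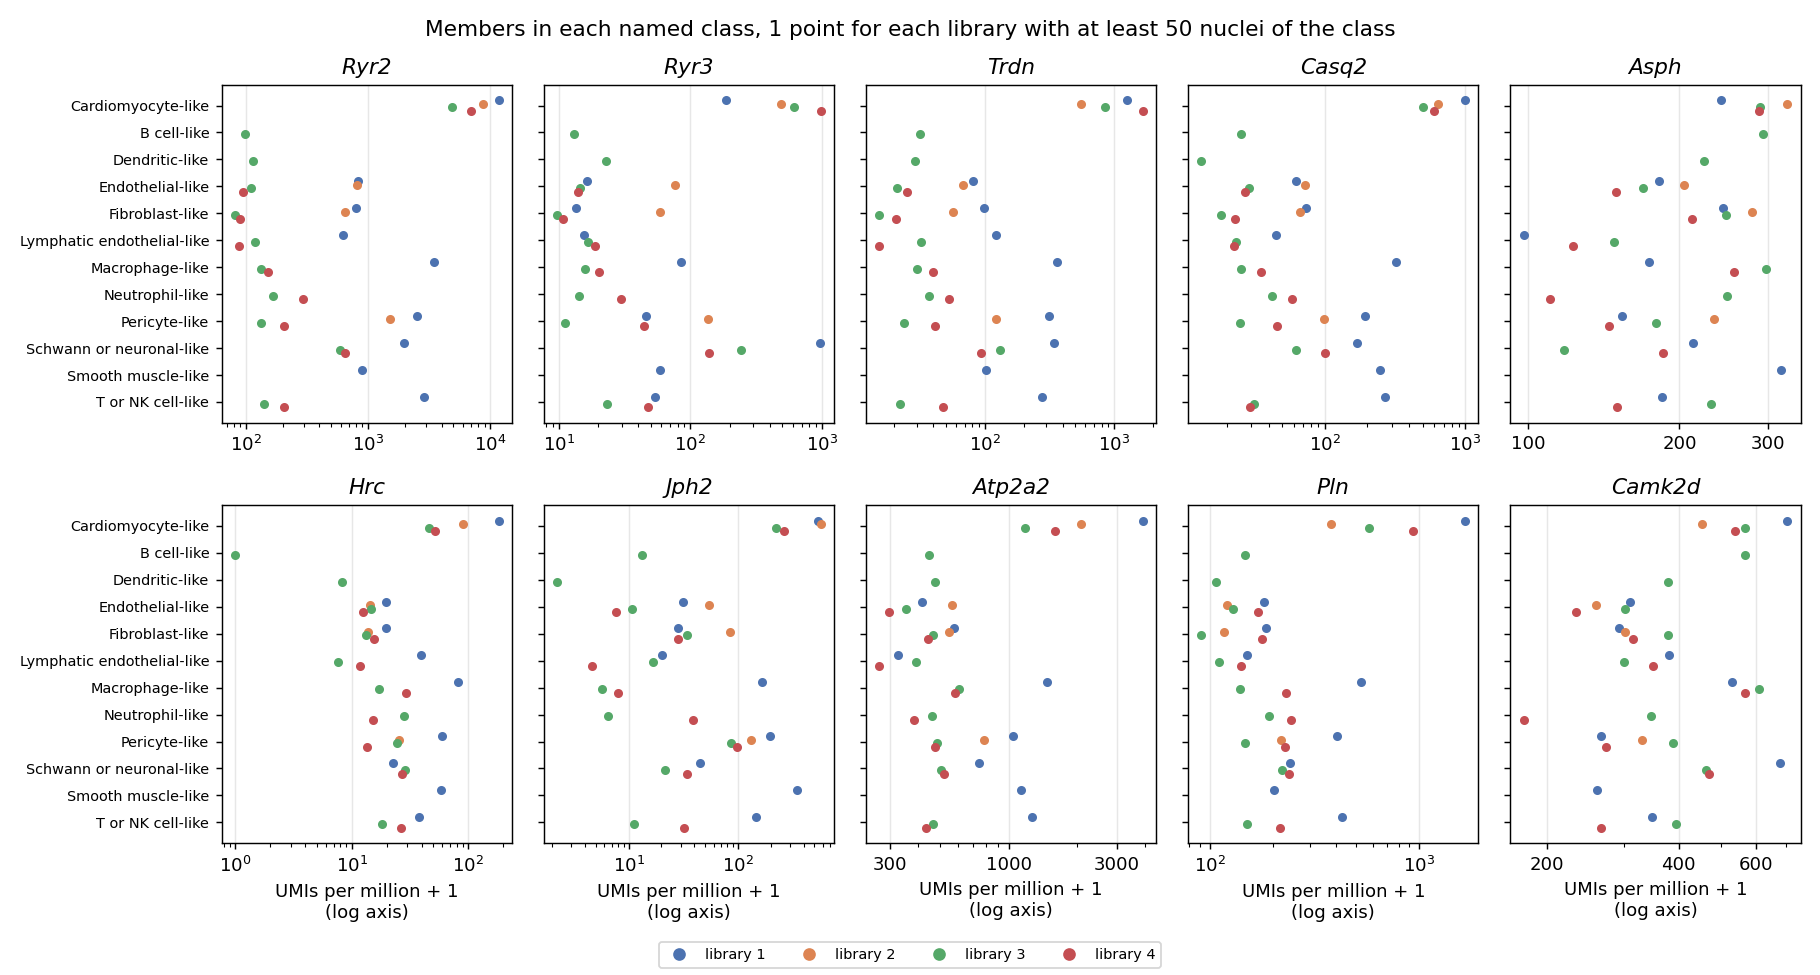
CPM plus 1 (log axis) of each gene in each named class, with 1 point for each library that had at least 50 nuclei of the class. Cardiomyocyte-like points lie at the right for Ryr2, Trdn and Casq2, while for Ryr3 the cardiomyocyte-like point of library 1, at 186, lies left of its Schwann or neuronal-like point, at 969.

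Ryr3 was seen outside cardiomyocyte-like nuclei most clearly in Schwann or neuronal-like nuclei, at 969 CPM in library 1 (113 nuclei), 241 CPM in library 3 (50 nuclei) and 138 CPM in library 4 (50 nuclei). In library 1 that was 522% of the cardiomyocyte-like level, while the cardiomyocyte markers lay between 14.2 and 29.9% of theirs. In libraries 3 and 4 it was 39.5 and 14.1%, within the marker ranges of 9.08 to 41.1% and 8.21 to 45.0%. Only in library 1, then, did Ryr3 in these nuclei exceed every marker. The marker medians in libraries 3 and 4 were 18.0 and 12.6%, and the source of the Ryr3 RNA there was not tested. By its point value Ryr3 also exceeded every marker in macrophage-like nuclei of library 1, at 84.1 CPM or 45.4%, where the markers reached 38.9%. In libraries 3 and 4 it stood at 14.9 and 19.1 CPM in that class, within the marker ranges. By the median over libraries, smooth muscle-like nuclei came after Schwann or neuronal-like ones, at 57.5 CPM in 1 library, from 4 UMIs and within the marker range, and fibroblast-like nuclei came last, at 8.75 to 58.0 CPM.

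Jph2 stood above every marker in smooth muscle-like nuclei of library 1 (53 nuclei), at 345 CPM or 64.6% of the cardiomyocyte-like level, where the markers reached 34.7%. It did so too in pericyte-like nuclei of libraries 1, 3 and 4, at 197, 84.7 and 98.0 CPM or 36.8, 38.5 and 37.1%, where the markers reached 30.3, 33.6 and 34.3%. In pericyte-like nuclei of library 2 it was 131 CPM or 22.8%, within the marker range. The pericyte excess was thus narrow. The 41 smooth muscle-like nuclei of library 4, under the minimum of 50, held 281 CPM of Jph2. Cardiomyocyte-like nuclei of that library held 264 CPM, and the markers reached 56.9% in the 41 nuclei, so Jph2 lay above every marker there too. Among classes of at least 50 nuclei, the smooth muscle excess rests on 1 library of 53 nuclei. Casq2 stood at 245 CPM in the smooth muscle-like nuclei of library 1, 24.5%, within the marker range.

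Camk2d and Asph were spread over the classes. Camk2d stood at 705, 566 and 535 CPM in cardiomyocyte-like nuclei of libraries 1, 3 and 4, against 527, 609 and 564 CPM in macrophage-like nuclei of those libraries. By point value it was thus lower in cardiomyocyte-like nuclei in libraries 3 and 4, narrowly so in library 4. In Schwann or neuronal-like nuclei it stood at 678, 461 and 467 CPM. Asph stood at 240, 326, 287 and 287 CPM in cardiomyocyte-like nuclei, against 243, 277, 246 and 211 CPM in fibroblast-like nuclei. Neither gene set cardiomyocyte-like nuclei apart by a wide margin. Atp2a2, which encodes a pump that most cell types use in the endoplasmic reticulum, kept 8.33 to 51.1% of its cardiomyocyte-like level in the other classes.

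**Figure D4:**
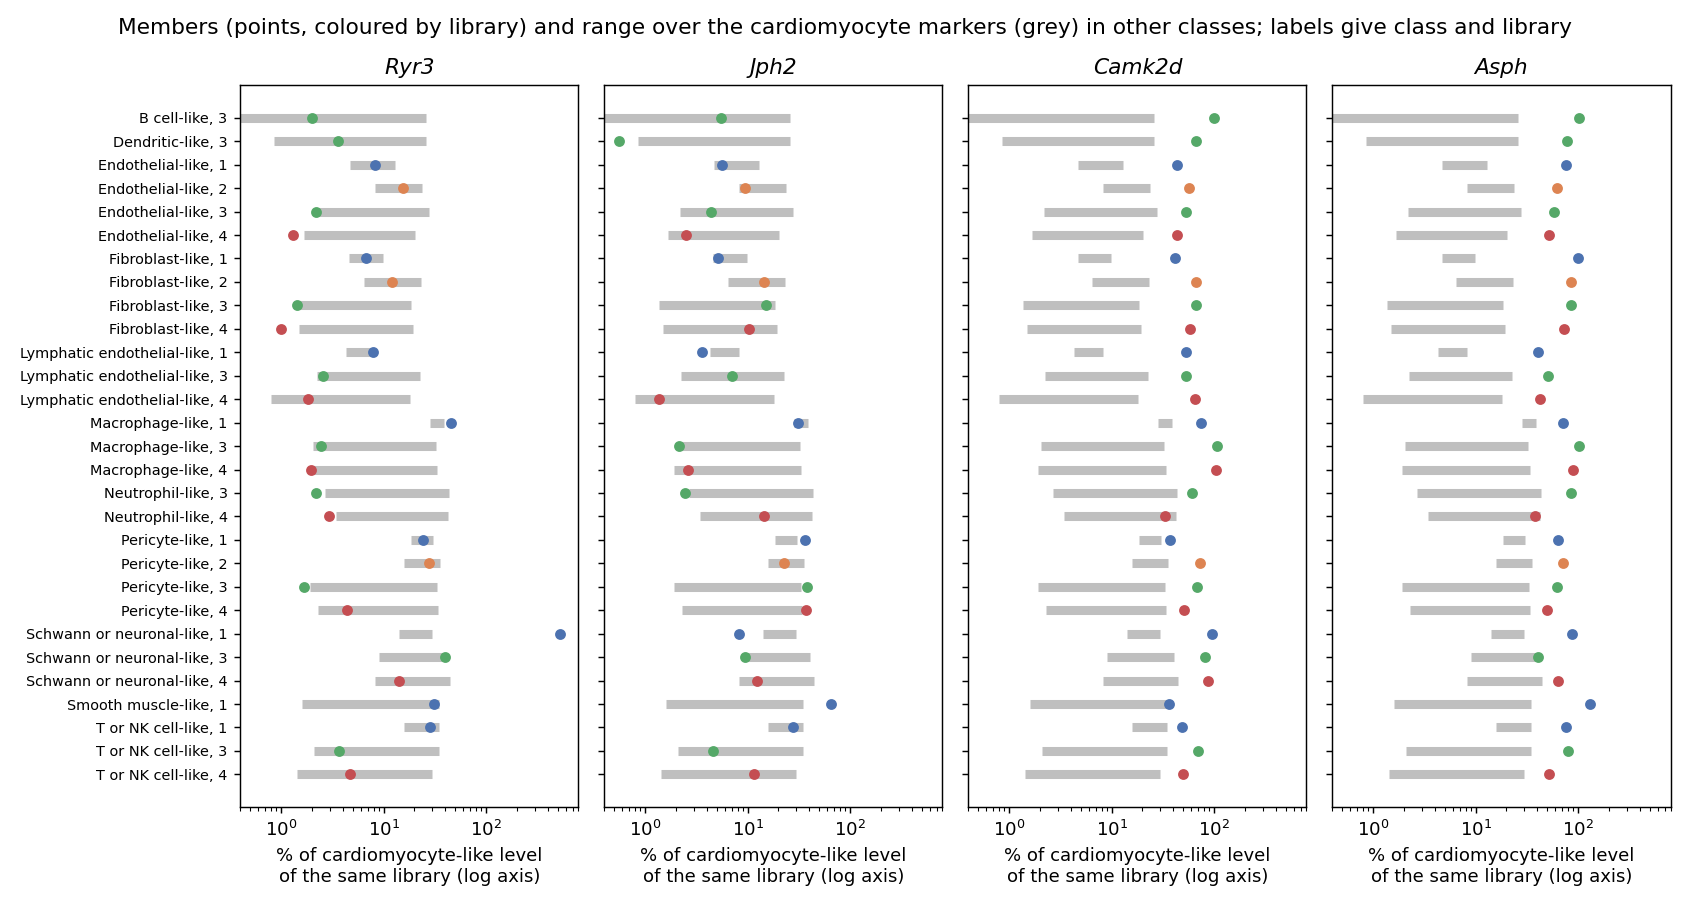
Ryr3, Jph2, Camk2d and Asph in each other class and library, as a percentage of the cardiomyocyte-like level of the same library (log axis), with points coloured by library and grey bars for the range over 9 cardiomyocyte markers, a lowest value of 0 being drawn at the left edge. Camk2d and Asph points lie to the right of nearly all bars, and Ryr3 leaves its bar clearly in Schwann or neuronal-like nuclei of library 1, at 522%.

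Over the 33 sums of a class in a library, the genes whose log2(CPM + 10) ran most like that of Ryr2 were Rbm20 (Pearson's r 0.99), Fhod3 (0.98), Mylk3 (0.98), Ppargc1a (0.97) and Tnni3k (0.97). For Ryr3 they were Efcab6 (0.89), Frmd5 (0.89), Epb41l4b (0.88), Myh14 (0.84) and Grb14 (0.83), and for Pln Myoz2 (0.92), Sptb (0.91), Smpx (0.90), Gabrb2 (0.89) and Efnb3 (0.89). Among the 10 genes, r between Ryr2 and Trdn was 0.97, between Ryr2 and Casq2 0.96, between Ryr2 and Ryr3 0.79 and between Ryr2 and Asph 0.25. Rbm20 and Fhod3 were among the markers that named the cardiomyocyte-like class. Their high r with Ryr2 over sums of the named classes is therefore no separate support. Sums of one library share its depth and free RNA, so these values describe likeness in these libraries only.

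Other genes of calcium handling were taken from 7 lists of 67 genes, of which 59 could be measured. Of these, 13 were higher by more than 2-fold in cardiomyocyte-like nuclei in all 4 libraries and 0 were lower in all 4, beside 2.53 and 0.570% of all genes. With nuclei chosen by Rbm20, Mlip and Fhod3 UMIs, 7 were higher. Junction proteins held 6 of 9, plasma membrane calcium entry and exit 3 of 7, kinases, phosphatases and anchors 3 of 14, and release channel partners 1 of 10. IP3 receptors and store-operated entry, luminal calcium-binding proteins of the general reticulum, and the other pumps and regulators held 0 of 9, 0 of 9 and 0 of 1. The list medians were 2.57 log2 for junction proteins and 1.17 for plasma membrane genes, against -0.20 over all genes, and -0.82 for IP3 and store-operated genes and -0.79 for luminal proteins.

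Speg, a kinase of the junction, stood at 565, 622, 225 and 343 CPM in cardiomyocyte-like nuclei, against 63.6, 90.4, 12.0 and 16.9 CPM in other named nuclei. Akap6, an anchor for kinases at the nuclear envelope and reticulum, stood at 2000, 1033, 745 and 1028 CPM, against 299, 162, 28.0 and 39.0 CPM. These and the L-type channel genes were far apart between the groups in each library. Cacna1c, the pore of the L-type channel, stood at 1555, 911, 673 and 961 CPM, against 231, 213, 96.4 and 101 CPM. The gene of its subunit, Cacnb2, lay 3.46 log2 higher by the median. Tmem38a, a counter-ion channel of the reticulum, stood at 129, 81.9, 39.9 and 47.8 CPM, against 21.4, 22.0, 7.23 and 9.76 CPM. Ppp1r3a, a glycogen-targeting subunit of protein phosphatase 1, lay 2.71 log2 higher by the median and Casq1, the skeletal calsequestrin, 0.89.

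Other named genes of the lists, Jph3 aside, lay below the other nuclei by their medians without passing 2-fold in all 4 libraries. Stim2, a calcium sensor of the reticulum, stood at 23.6, 67.7, 96.3 and 88.0 CPM in cardiomyocyte-like nuclei, against 279, 189, 181 and 221 CPM. Calr, the calcium-binding chaperone calreticulin, stood at 16.4, 176, 560 and 291 CPM, against 63.8, 345, 925 and 607 CPM. Library 1 had the widest gap for Stim2. Median differences were -1.30 for Atp2b4, a plasma membrane calcium pump, -1.11 for Rcn1, -0.98 for Bin1, -0.97 for Orai2 and -0.55 for the pump gene Atp2a3. They were -0.42 for Orai1 and -0.27 for Saraf, the highest of the IP3 and store-operated list, and 0.06 for Jph3, which was close to 0 CPM in every library. Of the release channel partners, Calm2, a calmodulin gene whose symbol stands on several rows of the table, lay at -1.19 and Fkbp1a at -0.86. The medians were -0.72 for the plasma membrane pump gene Atp2b1, -0.79 for Ppp2r5a and -0.68 for Ppp1ca, both of phosphatases, and -0.30 for Rcn2 and -0.13 for Sdf4, the highest of the luminal list.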

How the data were processed

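The deposited matrix holds whole-number UMI counts, not normalized, for 32623 genes and 48637 barcodes (108629374 UMIs), and names cellranger 5.0.1, per the file headers. The submitters' processing notes list Cell Ranger 6.1.1, Seurat and rn7, so the version is unsettled, and 7858 deposited symbols are contig names, which leaves the build open too. Nuclei came by Dounce lysis and a 10x 3' v3 kit, per the labels' protocols, so isoforms are not resolved. UMI totals over all barcodes of libraries 1 to 4 were 18465378, 14296637, 51913291 and 23954068.

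Filters asked for 500 UMIs, 300 genes and no more than 10% mitochondrial UMIs per nucleus. The highest scrublet scores (scanpy 1.11.5), 0.8% per 1000 nuclei, were removed as doublets. Each library was clustered on its own (2000 variable genes, 30 components, 15 neighbours, Leiden resolution 1), with the 10 genes and the list genes left out. A cluster was named where at least 3 markers of a class were 2-fold over the library's other nuclei and seen in 5% of nuclei, with a margin of 0.5 log2 over the next class. Names rest on markers alone, and cell types may differ from the study's.

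UMIs were summed per class and library and given per 1000000 (CPM), with exact Poisson, conditional binomial or Clopper-Pearson intervals. These cover counting error only. Genes with at least 30 UMIs were compared on log2(CPM + 10), calls being beyond 1. Free RNA was estimated per class as the share of the library's mean profile at which markers of other classes reach 0. The calls were tested on simulated sums, which did not cover filtering, doublet removal, clustering or naming. Members and lists were chosen with earlier results of these data known. The 10 genes were always named, with the 2 highest and 2 lowest genes of each list and the 5 genes most like Ryr2, Ryr3 and Pln; 1 gene that this rule picked is not reported here. Clusters and nuclei without a name enter no comparison.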

Additional observations from a re-analysis of the deposited data

How the results depend on the processing

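No paired analysis was possible because each sample has 1 library and no test was made. The 8 genes higher in cardiomyocyte-like nuclei became 5 when these were taken as nuclei with a UMI of at least 2 of Rbm20, Mlip and Fhod3, the 13 list genes became 7, and the 5 genes that differed between libraries became 8; by that rule library 2 had 2407 nuclei, of which 351 were cardiomyocyte-like by cluster. The between-library count was 9 with median-of-ratios scaling, which moved library 1 up, 8 with the all-gene median set to 0, and 3 with free RNA subtracted. It was 2 without library 1, and 6 without each of libraries 2, 3 and 4. Joint clustering of the libraries, the all-gene median as zero and leaving out a library were chosen after seeing the data. The other alternatives (a pseudocount of 1, at least 1000 UMIs, no count filter, no high-UMI clusters, all variable genes, no doublet removal, joint clustering) left each of these counts within 1.5 times its main value. Leaving out a library gave 8 genes for the class contrast and 13 or 14 for the lists. The share of all genes is given here only for the main setting and for the all-gene median as zero. No gene called in the class contrast or between libraries changed direction under these alternatives. Library 2 had the fewest UMIs behind the cardiomyocyte-like values of Hrc and Pln, 88 and 376. Causes of the differences between settings were not tested.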
